A study of Mus musculus with 12 samples.

Results

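Mouse blastocysts kept for 10 h in a p38 mitogen-activated protein kinase inhibitor (p38-MAPKi) were compared with blastocysts kept for the same 10 h in solvent. The comparison used 4 of the 12 poly(A) RNA-seq libraries of the series, 2 of each condition, collected at E3.5 + 10 h. A gene was tested when its deposited value reached 1 RPKM (reads scaled to transcript length and library size) in at least 2 of these 4 libraries, and 10959 of 34245 genes did. The gene nearest to this limit from above held 1.0001 RPKM in its second-highest library, and the nearest from below 0.9996 RPKM. Of the genes left out, 9180 had a read in the 4 libraries and 14106 had none.

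Embryos of both groups came from superovulated F1 hybrid (C57Bl6 x CBA/W) females that had been mated with F1 males. They were isolated at E1.5 as 2-cell embryos and grown in KSOM medium with amino acids (KSOM + AA) up to E3.5. From then on, 30 embryos per library were held in 20 µM SB220025, the p38-MAPK inhibitor, or in an equivalent volume of DMSO (control). Each library is therefore a pool of whole blastocysts, in which fewer cells of a lineage and less RNA per cell cannot be told apart. The study's methods treat the 2 libraries of a group as biological duplicates. Whether these pools came from separate litters or days is not given in the sources used here, so the p-values measure the spread between these pools. The study added the inhibitor to ask what p38-MAPK does while the blastocyst matures, and the other 8 libraries repeat both conditions after 4 h and after 7 h.

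p38-MAPKs are kinases that cells switch on under stress and in response to cytokines and growth factors, and their substrates include further kinases, transcription factors and RNA-binding proteins. The early blastocyst holds an outer trophectoderm (TE) and an inner cell mass that divides into epiblast (EPI) and primitive endoderm (PrE), and p38-MAPK activity is known to be needed for the PrE. Proteins made at the endoplasmic reticulum (ER) are folded there by chaperones whose genes are induced by the unfolded protein response (UPR), while damaged proteins are removed by the ubiquitin-proteasome system and by autophagy.

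The 4 libraries held from 19039078 to 24457312 reads in the authors' scaling, and the 2 libraries of a group correlated at 0.987 (control) and 0.986 (p38-MAPKi) across tested genes, with median SDs of 0.0815 and 0.0841 on the log2 scale. Reads that fell in genes made up 91.0 and 91.4% of the control libraries and 87.8 and 88.7% of the p38-MAPKi libraries, so this share moved with the condition. Markers of cumulus cells, red blood cells, stroma and leucocytes were near 0 in all 4, with at most 37, 5, 23 and 5 reads summed over each list. Xist, the RNA that coats the inactive X chromosome, was at 32.3 and 35.1 RPKM in control and at 54.1 and 37.8 RPKM in p38-MAPKi, and the 4 Y-linked markers summed to 21.6 to 25.7 RPKM in control and 20.4 to 21.1 RPKM in p38-MAPKi. The share of reads in genes was addressed by a fit scaled to those reads, whose values stand beside the results, whereas the part of the Xist and Y-linked levels in the results was not tested. The blastocyst lineages were present in every library: TE markers summed to 2171 to 2552 RPKM, EPI markers to 556 to 624 RPKM and PrE markers to 179 to 185 RPKM.

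At an adjusted p under 0.05 (limma with a trended prior, Benjamini-Hochberg adjustment over all tested genes), 88 of 10959 genes were called, which is 0.803% of them. Of these, 37 were higher after p38-MAPKi (0.338%) and 51 were lower (0.465%). The smallest adjusted p was 0.0287, and 2172 genes (19.8%) had an unadjusted p under 0.05. The libraries of the groups did not overlap for 52.2% of all tested genes, with p38-MAPKi above both controls for 22.6% and below both for 29.6%. An exact permutation test of any single gene cannot go below p = 0.333 with 2 libraries against 2. The split between higher and lower calls depended on the scaling, with 51 higher and 42 lower when values were scaled to the reads in genes, 60 and 54 after removal of a trend with transcript length, and 301 and 176 with limma-voom on the reads recovered from the deposited values. The 88 called genes kept their direction in all these fits, which use the same 4 libraries that chose them, so this is no independent check. Counts given for each list below are to be read beside these shares and counts over all tested genes. Of the 88 called genes, 24 belonged to a gene list, and 13 of the 39 lists held a called gene. All lists together held 1352 distinct symbols, tested or not. The lists were written for this tissue and treatment with earlier results of these data known, so these counts are a description only.

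**Figure D1:**
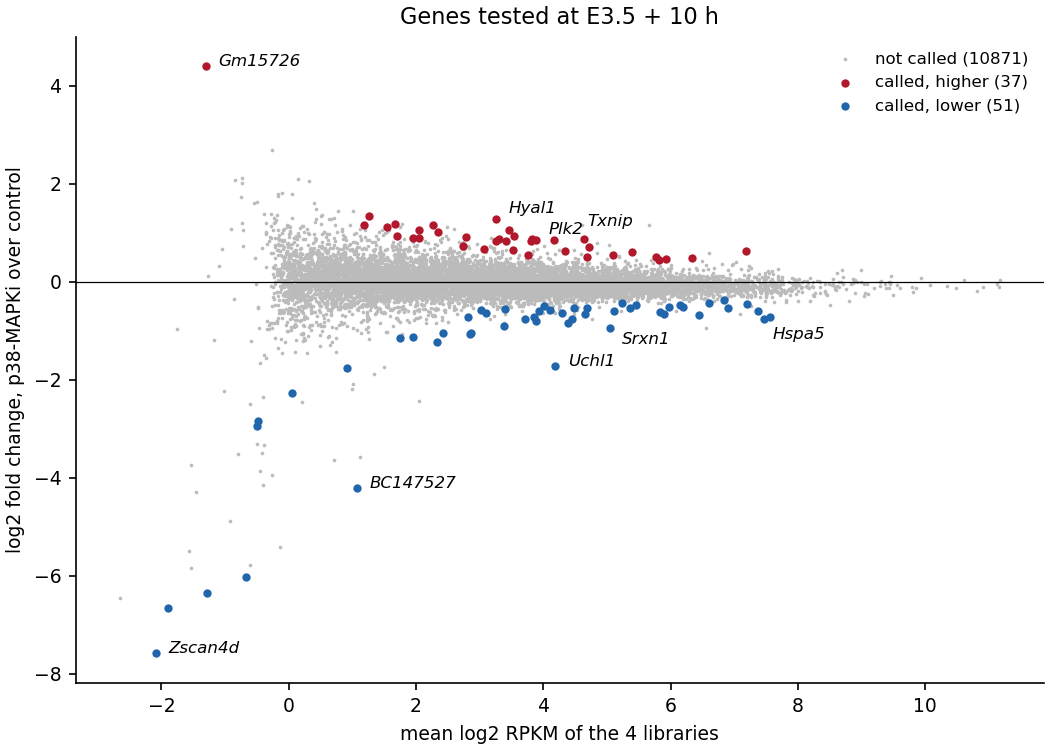
Difference between p38-MAPKi and control (y axis, log2 fold change) against the mean log2 RPKM of the 4 libraries (x axis) for the 10959 tested genes, with 37 genes called higher in red and 51 called lower in blue. Most called changes are small beside those of Zscan4d and BC147527, which lie far below, and of Gm15726, which lies far above.

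Among the lists, genes of the UPR held the most called falls. Of 31 tested UPR genes, 6 were called and all 6 fell. Both p38-MAPKi libraries lay below both controls for 27 of the 31, and in no member did they lie above, against 29.6% and 22.6% of all tested genes. The median of the list was -0.30 on the log2 scale, beside -0.02 over all tested genes. Scaling to the reads in genes left 23 members below both controls and a median of -0.26. Kdelr3, a receptor that returns proteins to the ER, is not in the list and was picked out after its values were seen: it rose from 2.82 and 2.92 RPKM to 5.88 and 5.99 RPKM (log2 fold change 1.05, SE 0.12, adjusted p = 0.0398). The number of list members called was 1 without the control library numbered 2 and 3 without the p38-MAPKi library numbered 1.

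Hspa5, which encodes the main Hsp70 chaperone of the ER (BiP), was at 216 and 244 RPKM in control and at 126 and 147 RPKM in p38-MAPKi. The groups did not overlap, and their means were 230 ± 20.1 and 137 ± 14.3 RPKM (SD, n = 2 each). This is a log2 fold change of -0.75 (SE 0.10, adjusted p = 0.0398, limma), with a 95% interval from -0.98 to -0.53. Hsp90b1, the ER form of Hsp90, was at 197 and 211 RPKM in control and 131 and 138 RPKM in p38-MAPKi, a log2 fold change of -0.60 (SE 0.07, adjusted p = 0.0391). Here too the groups did not overlap, and the p38-MAPKi pair was the tighter one, although 977 bases of its annotated span overlap Gm15344 on the same strand, so reads there could belong to either gene. Dnajb9, a J-domain partner of BiP, stood at 15.2 and 13.4 RPKM in control and fell to 7.70 and 7.59 RPKM, a log2 fold change of -0.90 (SE 0.10, adjusted p = 0.0367).

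Manf, a small protein retained in the ER and secreted under stress, was at 27.6 and 29.6 RPKM in control against 15.7 and 17.98 RPKM in p38-MAPKi. Its annotated span crosses Rbm15b on the same strand, so its value of -0.77 (log2, SE 0.09, adjusted p = 0.0398) may hold reads of that gene. Creld2, another ER protein induced by stress, was at 71.5 and 69.7 RPKM in control and at 43.1 and 49.3 RPKM in p38-MAPKi. Its log2 fold change was -0.61 (SE 0.08, adjusted p = 0.0398). Pdia6, a disulfide isomerase, went from 84.3 and 90.3 RPKM to 60.9 and 61.6 RPKM, a log2 fold change of -0.51 (SE 0.06, adjusted p = 0.0398). All 6 called chaperone genes thus separated the groups, at levels that ran from about 14 to 230 RPKM in control. The upstream factor Xbp1 was at 20.4 and 24.5 RPKM in control and 17.3 and 20.3 RPKM in p38-MAPKi, with a log2 fold change of -0.26 that was not called (adjusted p = 0.288), as were those of Herpud1 (-0.48, adjusted p = 0.302) and Sdf2l1 (-0.37, adjusted p = 0.0963).

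The promoters of these genes were read because several UPR genes are known to share the ER stress response element (CCAAT and CCACG with 9 bases of any kind between them), and because the members moved together. Promoters came from RefSeq (build GRCm38.p6) and ran from 250 bases before to 50 bases after each gene start. On either strand, 0.119% of all 32851 promoters held these letters, as did those of 17 of the 8339 tested genes that matched the table (0.204%). Of the 27 UPR genes with a promoter there, 8 held them. Among the genes called lower, 40 matched the table and 4 held the element, and these 4 were Hspa5, Hsp90b1, Creld2 and Pdia6; Dnajb9 matched the table without it. The element overlaps the shorter CCAAT box, which 37.4% of all promoters held.

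The 250 bases before the start of these 4 genes are shown 5′ to 3′ on the strand of the gene, with each match in capitals. They lie at chr2:34771840-34772089 (plus strand), chr10:86705445-86705694 (minus strand), chr15:88819396-88819645 (plus strand) and chr12:17266339-17266588 (plus strand).
Hspa5: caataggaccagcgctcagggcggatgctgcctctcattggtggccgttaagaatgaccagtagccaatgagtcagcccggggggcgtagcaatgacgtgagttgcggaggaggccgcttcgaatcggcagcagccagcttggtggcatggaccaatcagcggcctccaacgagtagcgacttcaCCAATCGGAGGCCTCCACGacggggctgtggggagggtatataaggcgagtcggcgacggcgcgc
Hsp90b1: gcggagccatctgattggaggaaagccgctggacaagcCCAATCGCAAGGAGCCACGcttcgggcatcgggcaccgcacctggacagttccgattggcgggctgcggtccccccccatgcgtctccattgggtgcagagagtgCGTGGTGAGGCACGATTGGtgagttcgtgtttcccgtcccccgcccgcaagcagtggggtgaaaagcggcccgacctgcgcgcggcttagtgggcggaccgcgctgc
Creld2: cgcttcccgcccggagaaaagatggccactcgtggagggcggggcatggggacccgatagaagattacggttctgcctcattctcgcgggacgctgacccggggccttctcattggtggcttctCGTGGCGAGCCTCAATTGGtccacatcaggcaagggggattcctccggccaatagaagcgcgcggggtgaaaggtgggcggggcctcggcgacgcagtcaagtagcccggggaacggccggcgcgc
Pdia6: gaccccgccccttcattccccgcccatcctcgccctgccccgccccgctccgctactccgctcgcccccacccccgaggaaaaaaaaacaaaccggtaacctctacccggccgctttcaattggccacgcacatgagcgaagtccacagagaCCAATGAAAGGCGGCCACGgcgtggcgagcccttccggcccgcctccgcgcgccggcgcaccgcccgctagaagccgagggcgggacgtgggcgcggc
The match began 65 bases before the start in Hspa5, 126 bases in Creld2 and 98 bases in Pdia6. Hsp90b1 held 2 matches, which began 212 and 107 bases before its start, and the nearer one and that of Creld2 lie on the opposite strand.

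Of the 8 UPR genes with the element, 7 lay below both controls and their median was -0.49 (log2). The 19 UPR genes that matched the table without it had a median of -0.30, with 17 below both controls. The 9 tested genes that held the element and are in no UPR list had a median of 0.15, and none lay below both controls. Nearly all UPR genes lay below both controls with or without the element, and the lowest value of the list (-1.04, Sec24d) was in a gene without it, while Canx (-0.05) and Syvn1 (-0.09) held it. These 3 genes were picked out after their values were seen. The medians are a description without a test, and a match is no evidence that a factor bound there.

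**Figure D2:**
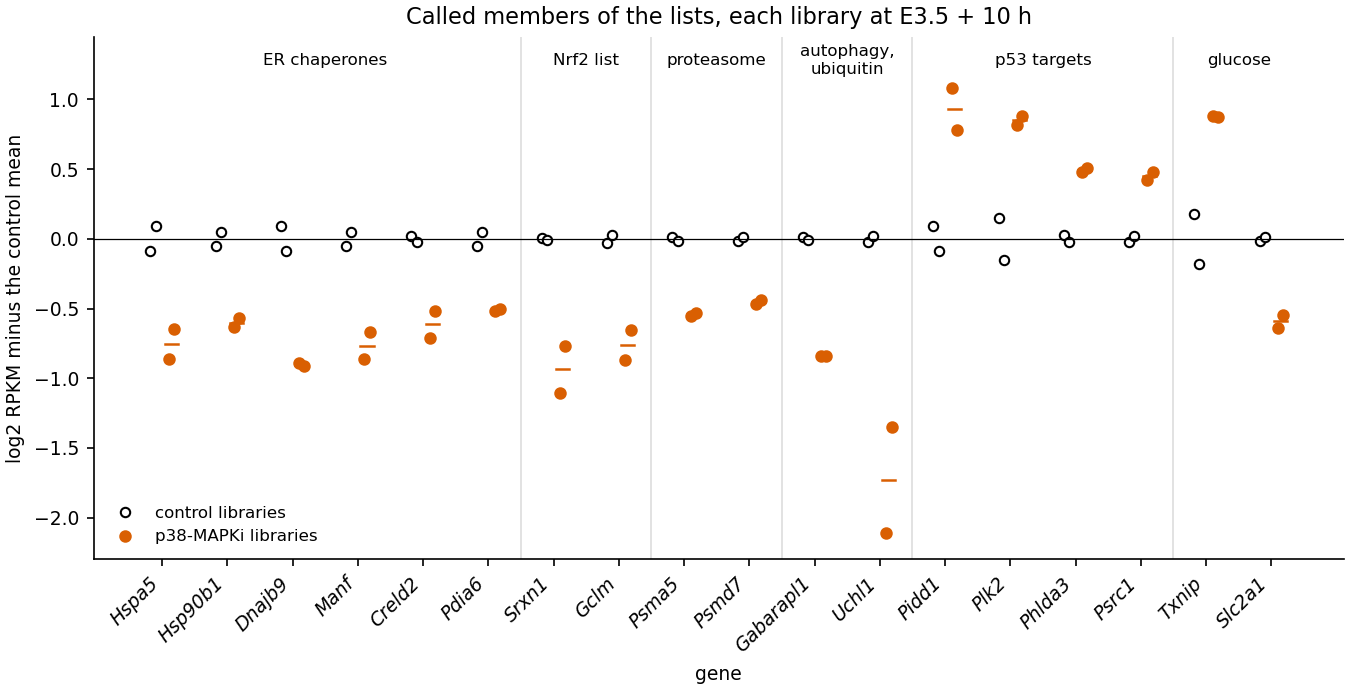
Value of each library (log2 RPKM minus the mean of the 2 control libraries, y axis) for 18 called members of the lists (x axis), with controls as open circles, p38-MAPKi as filled circles and a bar at the p38-MAPKi mean. The p38-MAPKi libraries lie below both controls for the ER chaperones, the Nrf2 genes, the proteasome subunits, Gabarapl1, Uchl1 and Slc2a1, and above them for the p53 targets and Txnip.

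Falls extended to genes of other protein-quality and antioxidant systems. Nrf2 is the transcription factor that induces antioxidant enzymes, and 2 of its 25 tested target genes were called, both lower. Srxn1, the sulfiredoxin that repairs over-oxidised peroxiredoxins, was at 45.9 and 45.5 RPKM in control and at 21.3 and 26.8 RPKM in p38-MAPKi. Both p38-MAPKi libraries lay far below a tight control pair, and the log2 fold change was -0.94 (SE 0.11, adjusted p = 0.0398). Gclm, a subunit of the enzyme that starts glutathione synthesis, was at 16.8 and 17.5 RPKM in control and 9.38 and 10.9 RPKM in p38-MAPKi (log2 fold change -0.76, SE 0.10, adjusted p = 0.0398). The list had 14 members below both controls and none above, with a median of -0.18, and 5 were called without the p38-MAPKi library numbered 2 but 1 without the p38-MAPKi library numbered 1 or the control library numbered 2. Across all tested genes, 29.6% lay below both controls and 22.6% above. The share of the Nrf2 list below both controls (56%) was near that of lists of other function, such as EPI genes (56.5%) and translation factors (53.8%). Nqo1, the example of the Nrf2 list, was low, at 2.4 to 4.9 RPKM with overlapping groups. It was not called (log2 fold change -0.51, adjusted p = 0.296).

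Subunits of the proteasome, the protease that degrades ubiquitin-tagged proteins, were lower as a list. Of 47 tested, 34 lay below both controls and 3 above, 29 had an unadjusted p under 0.05 in the lower direction and 2 were called. Across all tested genes, 29.6% lay below both controls and 22.6% above, 11.6% had such a p in that direction and 0.465% were called lower. The median was -0.21, and -0.16 when scaled to the reads in genes, with 33 still below both controls. Psma5, an alpha subunit of the core, was at 147 and 144 RPKM in control against 99.0 and 100.5 RPKM in p38-MAPKi (log2 fold change -0.54, SE 0.06, adjusted p = 0.0367). Psmd7, a subunit of the regulatory lid, was at 171 and 174 RPKM in control against 125 and 128 RPKM (log2 fold change -0.45, SE 0.06, adjusted p = 0.0398). In both genes the spread within a group was far smaller than the gap between groups, yet no subunit was called without the control library numbered 2 or without the p38-MAPKi library numbered 1, and 1 was called without the control library numbered 1. The examples Psmc4, Psmd1 and Psmb5 had log2 fold changes of -0.30, -0.27 and -0.18 and were not called.

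Single members of the autophagy, ubiquitin hydrolase and lysosome lists were also called lower. Gabarapl1, an ATG8-family protein of the autophagosome membrane, was at 28.3 and 27.8 RPKM in control and at 15.7 and 15.6 RPKM in p38-MAPKi. The 2 libraries of each group were almost equal, and the log2 fold change was -0.84 (SE 0.07, adjusted p = 0.030). It was the 1 call among 33 genes of the autophagy list, whose median was -0.07. Atg9b, another autophagy gene that is not in that list and was picked out after its values were seen, rose from 2.98 and 2.69 RPKM to 5.41 and 5.12 RPKM (log2 fold change 0.89, SE 0.13, adjusted p = 0.0478). The cargo receptor Sqstm1, which also stands in the Nrf2 list, was at 175 and 166 RPKM against 97.5 and 120 RPKM, a log2 fold change of -0.65 that missed the threshold (adjusted p = 0.0555), and Map1lc3b was at -0.02. Uchl1, a deubiquitinating enzyme, was at 32.7 and 33.6 RPKM in control and at 7.68 and 13.0 RPKM in p38-MAPKi. Both treated libraries were low but unequal, and the log2 fold change was -1.73 (SE 0.22, adjusted p = 0.0398). Its relatives Uchl3 and Uchl5 were at -0.17 and -0.05 and were not called, and Uchl1 was the 1 call among 38 ubiquitin hydrolases. Neu1, the lysosomal sialidase, was the 1 call among the 29 tested genes of the lysosome list, which does not hold Hyal1 (called higher, described with the rises), at 52.4 and 51.2 RPKM against 38.7 and 36.1 RPKM (log2 fold change -0.47, SE 0.07, adjusted p = 0.0478), while the cathepsins Ctsl and Ctsd and the saposin precursor Psap were at -0.27, 0.02 and 0.04.

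Heat shock proteins and the integrated stress response (ISR), which lowers general translation and raises Atf4, gave few or no calls. None of 27 tested heat shock proteins and cytosolic chaperones was called by limma. However, 12 had an unadjusted p under 0.05 (limma) in the lower direction and 1 in the higher, and limma-voom called 3 lower. Of the 27, 19 (70.4%) lay below both controls and 3 (11.1%) above, beside 29.6% and 22.6% of all tested genes. Their median was -0.16. Dnajb1, Hspa8 and Hsp90aa1 had log2 fold changes of -0.43, -0.41 and -0.29. In the ISR list, 1 of 20 was called: Psat1, an enzyme of serine synthesis, at 74.4 and 76.0 RPKM in control and 52.2 and 53.2 RPKM in p38-MAPKi (log2 fold change -0.51, SE 0.06, adjusted p = 0.0398). Of the 20, 12 lay below both controls and 2 above, 7 had an unadjusted p under 0.05 in the lower direction and 1 in the higher. Their median was -0.19. Across all tested genes, 29.6% lay below both controls and 22.6% above, and 11.6% and 8.26% had such a p (limma) in the lower and higher direction. The other examples were not called. Atf4 was at 109 and 128 RPKM against 86.7 and 93.3 RPKM (log2 fold change -0.39, adjusted p = 0.0931), and Asns, its asparagine synthetase target, was at -0.65 (adjusted p = 0.102). Ddit3, which encodes the pro-apoptotic factor CHOP, was one of the 2 members above both controls, at 6.4 and 7.6 RPKM against 12.2 and 10.98 RPKM (log2 fold change 0.73, adjusted p = 0.0561).

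Other called falls came from imprinted, immediate early and growth-factor genes. Mest, an imprinted gene expressed from the paternal allele, was at 11.8 and 9.33 RPKM in control and at 4.82 and 5.16 RPKM in p38-MAPKi (log2 fold change -1.07, SE 0.13, adjusted p = 0.0398). Impact, an imprinted regulator of the kinase GCN2, was at 19.5 and 17.4 RPKM against 12.1 and 10.4 RPKM (log2 fold change -0.71, SE 0.11, adjusted p = 0.0482). In both, the groups stood apart, and they were the 2 calls among 17 tested imprinted genes, where Igf2, Cdkn1c and H19 were at 0.75, 0.16 and 0.38 without a call. Midn, whose product brings short-lived nuclear proteins to the proteasome, was at 19.7 and 19.6 RPKM against 11.4 and 11.1 RPKM (log2 fold change -0.81, SE 0.08, adjusted p = 0.030). Ier3, an immediate early gene that growth factors and stress induce, was low, at 3.07 and 3.99 RPKM against 0.883 and 1.19 RPKM (log2 fold change -1.77, SE 0.24, adjusted p = 0.0403). These were the 2 calls among 17 immediate early genes, whose examples Jun, Dusp1 and Mcl1 were at 0.17, 0.24 and -0.10. Ier3 was also the 1 call among 16 genes of FGF receptors and ERK feedback. Of these 16, 9 lay below both controls and none above, beside 29.6% and 22.6% of all tested genes. Etv5, Fgfr1, Fgfr2 and Dusp6 of that list had log2 fold changes of -0.35, -0.23, -0.18 and -0.07.

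The remaining largest falls belonged to no list. H2afx, which encodes the histone variant phosphorylated at DNA breaks, was at 240 and 242 RPKM in control and at 150 and 144 RPKM in p38-MAPKi (log2 fold change -0.71, SE 0.06, adjusted p = 0.030). Its groups were separated by many times their own spread. Mocos, the molybdenum cofactor sulfurase, was at 10.1 and 10.97 RPKM against 4.72 and 5.44 RPKM (log2 fold change -1.05, SE 0.11, adjusted p = 0.0367). Nptx2, a secreted pentraxin, was at 6.92 and 8.55 RPKM against 3.42 and 4.05 RPKM (log2 fold change -1.05, SE 0.15, adjusted p = 0.0466). Mypop, a Myb-related repressor, was at 8.82 and 9.35 RPKM against 5.52 and 5.47 RPKM (log2 fold change -0.72, SE 0.10, adjusted p = 0.0398). The control libraries of these 3 genes lay above both p38-MAPKi libraries, as the rule for naming the largest falls required.

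Genes that rose were led, among the lists, by targets of p53, the transcription factor that responds to DNA damage and other stress. Of 27 tested, 4 were called, all higher, and 20 had an unadjusted p under 0.05 in that direction, beside 8.26% of all tested genes. Both p38-MAPKi libraries lay above both controls for 21 of the 27 and below them for 1, beside 22.6% and 29.6% of all tested genes. The median was 0.35 on the log2 scale, and 0.40 when scaled to the reads in genes, with 22 above. The call count rested on single libraries: it was 0 without the p38-MAPKi library numbered 1 and 1 without either of the libraries numbered 2.

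Pidd1, a death-domain protein induced by p53, was at 8.97 and 7.91 RPKM in control and at 17.9 and 14.5 RPKM in p38-MAPKi (log2 fold change 0.93, SE 0.13, adjusted p = 0.0402). Plk2, a polo-like kinase, was at 12.2 and 9.90 RPKM against 19.4 and 20.2 RPKM (log2 fold change 0.85, SE 0.11, adjusted p = 0.040). In both the treated libraries were the 2 highest, as the rule for naming the largest rises required. Phlda3, an inhibitor of Akt signalling, was at 69.1 and 66.9 RPKM against 94.8 and 96.6 RPKM (log2 fold change 0.49, SE 0.06, adjusted p = 0.0398). Psrc1, a spindle-associated protein, was at 47.8 and 49.3 RPKM against 64.9 and 67.5 RPKM (log2 fold change 0.45, SE 0.06, adjusted p = 0.0445). Better known targets were not called. Mdm2 was at 28.2 and 25.9 RPKM against 32.9 and 35.2 RPKM (log2 fold change 0.33, adjusted p = 0.0955), Cdkn1a at 82.6 and 74.0 RPKM against 83.7 and 89.0 RPKM (0.14, adjusted p = 0.351), and Bax had overlapping groups (-0.08, adjusted p = 0.607). Pidd1 was also the 1 call among 26 genes of the BCL2 family and apoptosis, where Bcl2l1 was at 0.25 (adjusted p = 0.221).

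Txnip rose and Slc2a1 fell. Txnip binds thioredoxin and limits glucose uptake, and its transcription is driven by the glucose-sensing factors of the Mlx family. It was at 20.7 and 16.1 RPKM in control and at 33.7 and 33.5 RPKM in p38-MAPKi, a log2 fold change of 0.88 (SE 0.12, adjusted p = 0.0403). Slc2a1, the glucose transporter GLUT1, was at 42.1 and 42.8 RPKM in control and at 27.2 and 29.1 RPKM in p38-MAPKi, a log2 fold change of -0.59 (SE 0.07, adjusted p = 0.0398). These were the 2 calls among 13 genes of this list. Arrdc4, a relative of Txnip, was at 6.2 and 4.2 RPKM against 8.5 and 8.6 RPKM (log2 fold change 0.76, adjusted p = 0.1001), and Mlxipl, a glucose-sensing factor, was low at 1.1 and 1.5 RPKM against 2.4 and 2.7 RPKM (1.03, adjusted p = 0.0939). Both missed the threshold with separated groups. Of the glycolysis genes, limma called none of 19, with 4 at an unadjusted p under 0.05 and 1 call by limma-voom; Hk2, Aldoa, Pgk1 and Ldha were at -0.38, -0.11, 0.11 and 0.13.

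The largest rises were mostly of genes in no list. Hyal1, a hyaluronidase of the lysosome, had the smallest adjusted p of all genes. It was at 6.26 and 6.12 RPKM in control and at 15.2 and 14.6 RPKM in p38-MAPKi (log2 fold change 1.27, SE 0.09, adjusted p = 0.0287). Nat6, which encodes the enzyme that acetylates actin, was at 10.9 and 10.0 RPKM against 18.5 and 19.8 RPKM (log2 fold change 0.88, SE 0.09, adjusted p = 0.0305). Hyal1 and Nat6 share 2824 bases on the same strand, so these 2 calls are not independent and reads could be split between them. Ttll6, a tubulin polyglutamylase, was at 7.35 and 8.06 RPKM against 18.7 and 13.53 RPKM (log2 fold change 1.05, SE 0.16, adjusted p = 0.0482). Wdr35, a component of ciliary transport, was at 3.76 and 3.43 RPKM against 7.94 and 6.54 RPKM (log2 fold change 1.01, SE 0.14, adjusted p = 0.0402). In Ttll6 and Wdr35 the treated libraries stood apart from control but were unequal.

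Snx22, a sorting nexin, went from 5.23 and 4.83 RPKM to 10.1 and 8.88 RPKM (log2 fold change 0.91), and Cd81, a tetraspanin, from 8.06 and 6.62 RPKM to 14.2 and 12.5 RPKM (0.86). Ffar3, a receptor for short-chain fatty acids, went from 13.0 and 13.98 RPKM to 26.4 and 22.1 RPKM (0.84), and Rtkn from 10.96 and 10.1 RPKM to 19.3 and 17.9 RPKM (0.82). All of these separated the groups, as the rule for naming the largest rises required. Sct, which encodes the hormone secretin, went from 7.74 and 6.66 RPKM to 12.1 and 13.3 RPKM (0.82), Btbd19 from 7.93 and 8.13 RPKM to 14.5 and 13.9 RPKM (0.82), and Pdzk1ip1, a small membrane protein, from 4.87 and 5.53 RPKM to 8.43 and 8.90 RPKM (0.74). The adjusted p of these 7 genes lay between 0.0352 and 0.0482. Snx22 overlaps the abundant gene Ppib on the opposite strand, and the strand setting of the counting is not given in the sources used here.

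Lineage genes gave no call by limma at E3.5 + 10 h, where none of 21 PrE, 23 EPI and 23 TE genes passed. By limma, 7, 6 and 8 of them had an unadjusted p under 0.05, beside 19.8% of all tested genes. Limma-voom called 4 PrE genes (3 higher, 1 lower), 0 EPI genes and 3 TE genes (1 higher, 2 lower), beside 477 of all 10959. Gata4, a late PrE factor, was at 3.9 and 2.3 RPKM in control and at 1.8 and 1.9 RPKM in p38-MAPKi. Although the groups did not overlap, the controls differed among themselves, and the log2 fold change of -0.70 (SE 0.25) was not called (adjusted p = 0.197). Sox17 overlapped between groups (-0.32, adjusted p = 0.480), and Gata6, an early PrE factor, was at 106 and 107 RPKM against 115 and 115 RPKM (0.11, adjusted p = 0.342). Pdgfra was at 0.07, and Lrp2, an endocytic receptor of the endoderm, was at -0.46 (adjusted p = 0.0975). The PrE list thus had members on both sides, 6 above and 7 below both controls, with a median of 0.04. Of all tested genes, 22.6% lay above and 29.6% below.

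EPI genes had a median of -0.14, with 13 of 23 below both controls and 3 above, beside 29.6% and 22.6% of all tested genes. Nanog was at 111 and 107 RPKM against 96.8 and 107 RPKM (log2 fold change -0.10, adjusted p = 0.508), while Sox2, Klf4, Pou5f1 and Fgf4 were at -0.19, -0.21, -0.10 and 0.03. The summed EPI markers were at 618 to 624 RPKM in control and 556 to 585 RPKM in p38-MAPKi. Among TE genes, with a median of 0.00, Cdx2 was at 204 and 208 RPKM against 177 and 176 RPKM (log2 fold change -0.22, adjusted p = 0.110) and Gata3 at 111 and 115 RPKM against 94.7 and 89.4 RPKM (-0.30, adjusted p = 0.0871). Both had separated groups without a call, whereas Krt8, Krt18 and Eomes overlapped, at 0.00, -0.08 and -0.04.

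The TE builds the blastocyst cavity with pumps, channels and tight junctions, and these genes gave no call by limma (none of 12 pumps and aquaporins, none of 31 junction genes, with 4 and 1 at an unadjusted p under 0.05, and 2 and 0 calls by limma-voom). Aqp3, a water and glycerol channel, was at 80.6 and 87.7 RPKM against 105 and 107 RPKM (log2 fold change 0.33, adjusted p = 0.0801), and Atp1b1, a subunit of the sodium pump, was at 82.1 and 88.7 RPKM against 67.6 and 66.1 RPKM (-0.35, adjusted p = 0.0727). Cdh1, Tjp1 and Cldn4 were at -0.02, -0.03 and -0.01. In the Hippo list, none of 26 genes was called, 5 had an unadjusted p under 0.05 and limma-voom called 1. Ctgf, a YAP target, was at 8.4 and 7.3 RPKM against 4.5 and 5.4 RPKM (-0.67, adjusted p = 0.0807), Amotl2 was at -0.38, Lats2 at -0.14 and Cyr61 at 0.29.

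Transcripts of the p38-MAPK cascade itself were not called (0 of 34 by limma, with 10 at an unadjusted p under 0.05 and 2 calls by limma-voom). Mapk14, which encodes p38 alpha, was at 26.7 and 26.7 RPKM in control and at 28.5 and 26.1 RPKM in p38-MAPKi (log2 fold change 0.03, adjusted p = 0.857). It was the most abundant p38 transcript per length. Mapk13 (p38 delta) was at 12.3 and 12.4 RPKM against 12.1 and 16.2 RPKM (0.19), and Mapk11 (p38 beta) was low, at 1.6 and 1.8 RPKM against 0.7 and 1.0 RPKM (-1.04, adjusted p = 0.148). Mapk12 (p38 gamma) stayed below the limit, with 24 and 13 reads in control and 13 and 22 in p38-MAPKi. The downstream kinase Mapkapk2 was at -0.08. The inhibitor acts on the kinase protein, so these levels check no label.

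Genes of translation gave no call by limma and had small, mostly negative values. Of 33 small-subunit and 49 large-subunit proteins of the cytosolic ribosome, 15 (45.5%) and 18 (36.7%) lay below both controls and none above. Over all tested genes, 29.6% lay below both controls and 22.6% above. The medians were -0.10 and -0.08, against -0.02 over all genes, and scaling to the reads in genes brought them to -0.05 and -0.04 beside 0.02. Rps3, Rps21 and Rpsa were at -0.10, -0.14 and 0.10, and Rpl3 and Rpl38 at -0.27 and -0.07. By limma, unadjusted p-values under 0.05 stood at 5 (15.2%) and 8 (16.3%), all in the lower direction, beside 11.6% of all tested genes. Limma-voom called 1 and 0. Of 77 mitochondrial ribosomal proteins, 41 lay below both controls and 6 above (median -0.12), with Mrps12 at -0.30 and Mrpl12 at -0.15. Ribosome biogenesis genes, 96 tested, had a median of -0.07; Mybbp1a, a nucleolar protein, was at 93.6 and 98.5 RPKM against 87.6 and 89.7 RPKM (-0.12, adjusted p = 0.352), Ncl was at -0.21, Fbl at -0.01 and Polr1a at 0.02. The mitochondrial ribosome and biogenesis lists had 20 (26%) and 19 (19.8%) genes at an unadjusted p under 0.05 (limma) in the lower direction. In the higher direction they had 0 and 3, beside 11.6% lower and 8.26% higher of all tested genes. Of the biogenesis genes, 45 (46.9%) lay below both controls and 13 above. Limma-voom called 0 and 1 in the 2 lists.

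Translation factors (52 tested, median -0.12) included Eif4e at -0.29, Eif4ebp1 at -0.28, Eif4a1 at -0.10 and Eef1a1 at 0.08, and tRNA synthetases (39 tested, median -0.07) included Iars at -0.33, Lars2 at -0.23 and Gars at -0.07. Neither had a call by limma, and limma-voom called 1 and 2, all lower. In these lists 28 and 21 genes (53.8% each) lay below both controls and 4 and 4 above, beside 29.6% and 22.6% of all tested genes. Unadjusted p-values under 0.05 (limma) stood at 13 (25%) and 11 (28.2%) in the lower direction, and at 0 and 1 in the higher. Over all tested genes these shares were 11.6% and 8.26%. Amino acid transporters (18 tested) were also without a call (8 at an unadjusted p under 0.05, 4 calls by limma-voom). Slc7a5, Slc6a14 and Slc1a5 were at -0.11, -0.24 and 0.26.

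The remaining lists held no gene called by limma. They were sterol and fatty acid synthesis (35 tested, median 0.11), respiratory complex I (37, -0.02), the other respiratory complexes (40, -0.04), the spliceosome (50, -0.07), replication licensing (26, -0.01), mitosis (42, -0.06), DNA methylation (12, -0.04), metallothioneins and zinc transport (16, -0.08) and histones (11, 0.01). Unadjusted p-values under 0.05 numbered 3, 3, 3, 10, 3, 6, 2, 1 and 4 in the same order. Limma-voom called 2, 0, 0, 1, 0, 2, 1, 0 and 0 of them. Hmgcs1, Sqle and Fasn of the first list were at -0.04, -0.06 and 0.22, each with overlapping groups. Cell cycle examples lay close to 0, with Ccnb1 at 0.01, Plk1 at -0.08, Mcm2 at -0.02, Mcm5 at -0.06 and Cdc6 at -0.01, and Cdk1 at -0.34 (adjusted p = 0.0903). Values for Ndufs1, Ndufa4, Sdha, Cox4i1 and Atp5e were 0.02, 0.03, -0.11, -0.06 and -0.07, and those for Sf3b1, Srsf3, Snrpe and Snrnp70 were 0.05, -0.11, -0.14 and -0.14. Dnmt1, Dnmt3a, Dnmt3l and Tet1 were at -0.13, 0.18, -0.06 and 0.09, and Mt1, Mt2 and Slc30a1 at 0.10, 0.24 and -0.24.

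**Figure D3:**
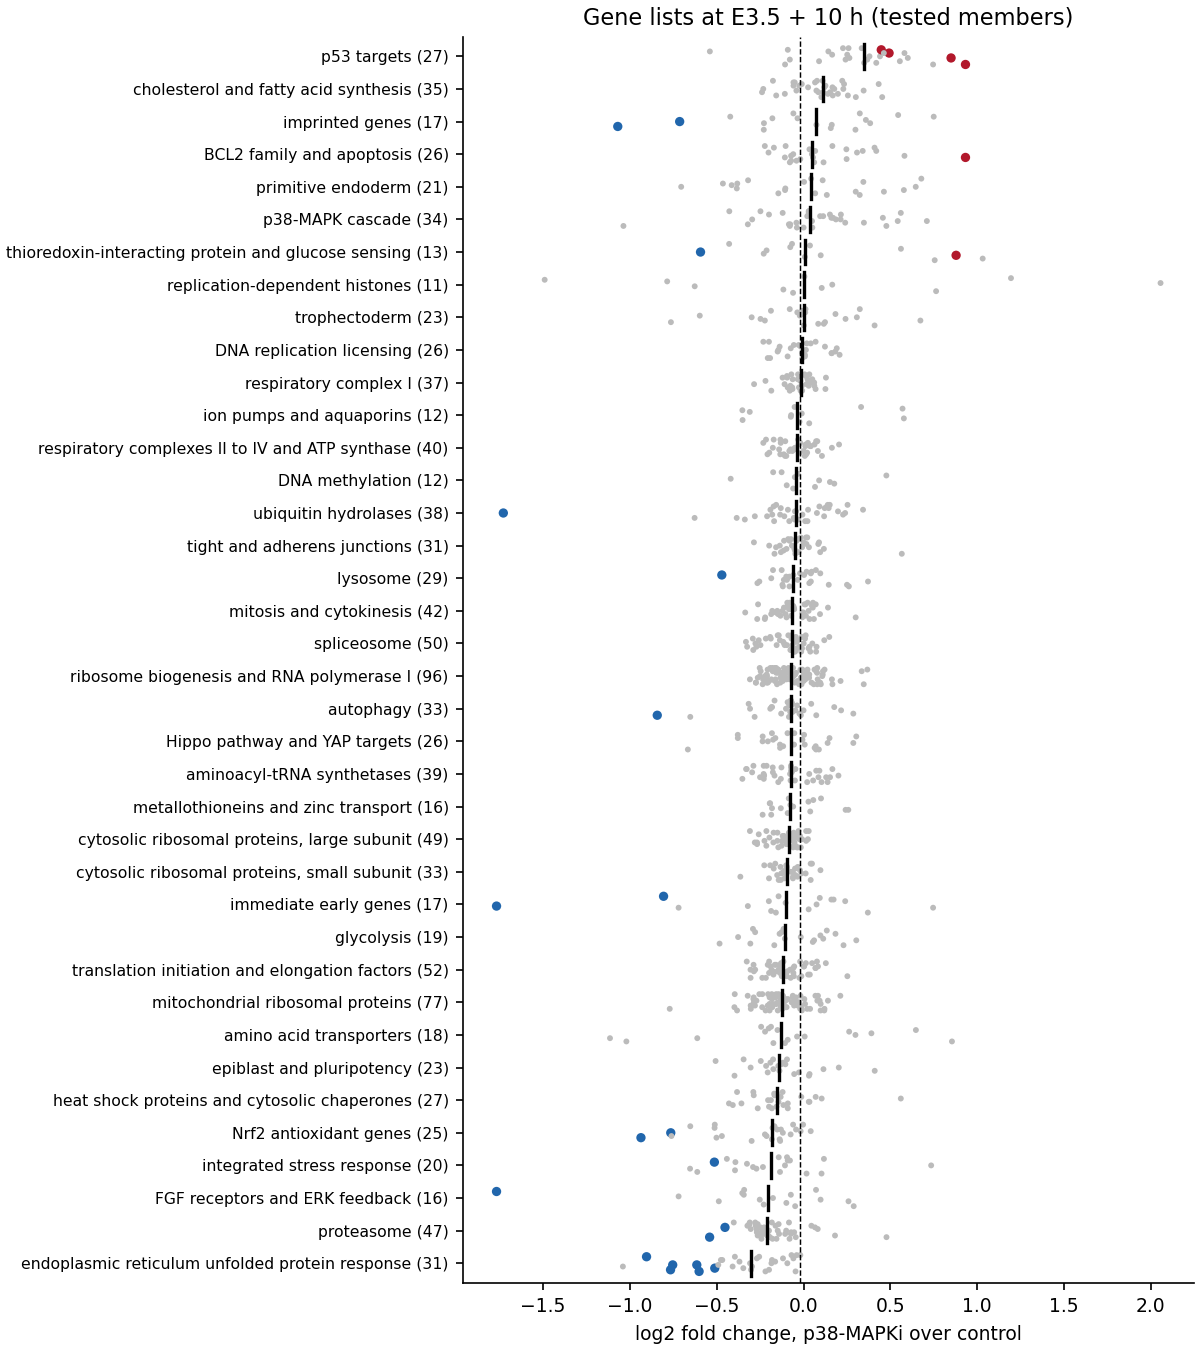
Log2 fold change of every tested member (points) in the 38 lists with at least 10 tested members, ordered by median (black bar), with the number tested in parentheses and a dashed line at the median of all tested genes. Called members are red where higher and blue where lower: UPR genes have the lowest median at -0.30 and p53 targets the highest at 0.35.

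The earlier time points were then set beside the calls, to see when these genes departed from control. The time points share no library. After leaving out 7 called genes that had no more than 3 reads in both groups at a time point, 36 rises and 45 falls remained. Of the 36 rises, 33 were also higher at 4 h (91.7%) and 28 at 7 h (77.8%), beside 62.6% and 41.8% of all tested genes that were higher at 10 h. Their median log2 fold change was 0.48 at 4 h, 0.36 at 7 h and 0.85 at 10 h. For 26 of the 36 (72.2%), both p38-MAPKi libraries lay above both controls at 4 h already, beside 30.3% of all tested genes higher at 10 h. At 7 h this held for 19 of the 36 (52.8%), beside 22.7%.

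Falls were different. Of the 45 genes called lower at 10 h, 23 were lower at 4 h (51.1%) and 29 at 7 h (64.4%), beside 42.9% and 63.5% of all tested genes that were lower at 10 h. Both p38-MAPKi libraries lay below both controls for 10 of the 45 at 4 h (22.2%) and 15 at 7 h (33.3%). Of all tested genes lower at 10 h, 16.2% and 43.5% did so. The median of the 45 went from 0.00 at 4 h to -0.19 at 7 h and -0.65 at 10 h. The genes were chosen by their values at 10 h, so a larger value there follows in part from the choice, and tests of the difference between times use the same 10 h libraries and share that choice. Their counts are therefore given as a description, beside the share of all genes, which were not chosen this way. When the difference was tested gene by gene (limma, interaction of treatment and time), 37 of the 45 falls and 9 of the 36 rises had an unadjusted p under 0.05 between 10 h and 4 h, beside 9.86% of 11288 genes. None passed at an adjusted p under 0.05, where 0 of the 11288 genes did. Against 7 h, 24 of the 45 falls and 14 of the 36 rises had such a p, beside 26.3% of 11400 genes. None of the 81 passed at an adjusted p under 0.05, where 0.00877% of the 11400 genes did.

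In the UPR list the median log2 fold change was 0.05 at 4 h, -0.10 at 7 h and -0.30 at 10 h. Hspa5 was at 0.00, -0.18 and -0.75, with a difference between 10 h and 4 h of -0.75 (adjusted p = 0.429). Srxn1 was at 0.21, 0.10 and -0.94, with a difference of -1.14 (adjusted p = 0.413), and Gabarapl1 at 0.23, 0.07 and -0.84, with a difference of -1.07 (adjusted p = 0.413). The values at 10 h were the lowest for all 3 genes, but the tests of the difference were not passed. Other falls, picked out after their values were seen, were lowest at 7 h. Slc2a1 was at -0.30, -0.74 and -0.59, Midn at -0.15, -0.88 and -0.81 and Impact at -0.39, -0.98 and -0.71. Of the 45 falls, 15 lay below both controls at 7 h and 7 above. Proteasome subunits had medians of 0.23, 0.38 and -0.21. Among the rises, Txnip was at 0.89, 0.97 and 0.88, Plk2 at 1.33, 0.86 and 0.85 and Phlda3 at 1.01, 1.07 and 0.49. The values of these 3 genes were positive at all times, and the p53 list had medians of 0.46, 0.23 and 0.35. Cytosolic ribosomal proteins of the small subunit had medians of 0.27, 0.73 and -0.10, and Gata4 was at 0.23, -0.65 and -0.70.

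**Figure D4:**
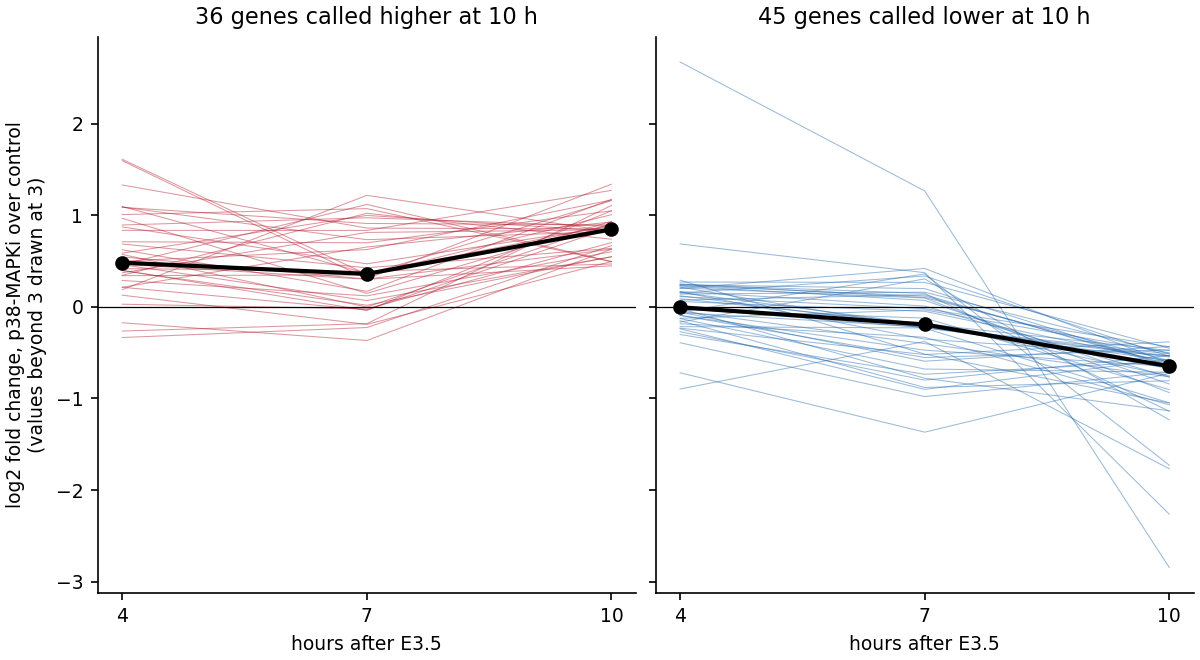
Log2 fold change of p38-MAPKi over control (y axis, values beyond 3 drawn at 3) at 4, 7 and 10 h after E3.5 (x axis) for the 36 genes called higher (left) and the 45 called lower (right) at 10 h, with thin lines for genes and a black line for the median. The median of the rises is 0.48, 0.36 and 0.85, and that of the falls is 0.00, -0.19 and -0.65.

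A set of genes with few reads gave the largest fold changes of all. They were singled out after their values were seen, since most lie under the level set for named genes. Zscan4d, a zinc-finger gene known for a burst of expression in the 2-cell embryo, had 215 and 114 reads in the control libraries and 0 in both p38-MAPKi libraries. With a floor of 3 reads over the group, it was at least 120-fold lower after p38-MAPKi. Gm12800 had 121 and 56 reads in control and 0 in both p38-MAPKi libraries, at least 64.8-fold lower. In both genes the control libraries also differed from each other. The bounds pool the 2 libraries of a group and do not cover the spread between pools.

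Usp17lb, of a family of deubiquitinating enzymes, had 149 and 99 reads in control and 3 and 0 in p38-MAPKi, a ratio of 0.0110 with an exact 95% interval from 0.00226 to 0.0326. Gm4312 had 127 and 74 reads in control and 3 and 0 in p38-MAPKi, a ratio of 0.0136 (0.00278 to 0.0403). These intervals, like those that follow, cover counting error only. BC147527, the only gene of the set within the level for named genes, had 390 and 239 reads against 11 and 30, which is 12.8 and 6.43 RPKM against 0.313 and 0.769 RPKM (log2 fold change -4.21, SE 0.48, adjusted p = 0.0398). B020031M17Rik had 45 and 32 reads against 5 and 6, a ratio of 0.130 (0.0624 to 0.246). The adjusted p of the others lay between 0.0398 and 0.0482.

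The same genes had the opposite direction at 7 h. At 4 h, none of the 6 had a read in any of the 4 libraries. At 7 h, their reads came almost wholly from 1 p38-MAPKi library, the one numbered 2, with 59 reads of Zscan4d, 71 of Gm12800, 111 of Usp17lb, 166 of Gm4312, 245 of BC147527 and 44 of B020031M17Rik. The other p38-MAPKi library of 7 h had 9 reads of BC147527 and 0 of the others, and it was the shallowest of the series with 11242313 reads. Zscan4c, a relative, had 70 and 29 reads in control and 0 and 0 in p38-MAPKi at 10 h, and 27 in that 1 library at 7 h. Members of the Zscan4 and Usp17l families are near-identical copies, so the split of reads among them is uncertain.

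**Figure D5:**
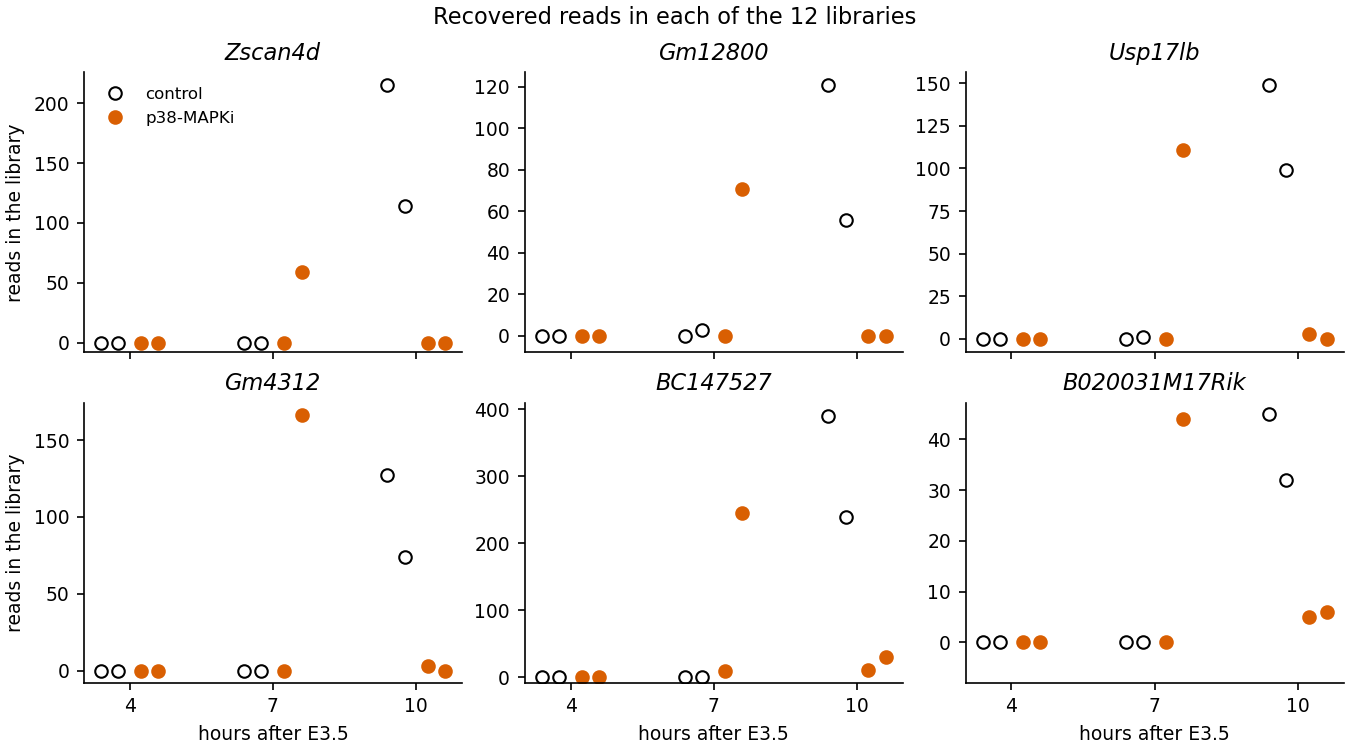
Reads in each of the 12 libraries (y axis, linear) at 4, 7 and 10 h after E3.5 (x axis) for 6 genes called lower at 10 h, with open circles for control and filled circles for p38-MAPKi. Reads appear in both control libraries of 10 h and in 1 p38-MAPKi library of 7 h, and are at or near 0 elsewhere.

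Another gene of few reads moved the other way. Gm15726 had 0 and 1 reads in the control libraries and 18 and 27 in p38-MAPKi, a ratio of 41.0 with an exact interval from 6.99 to 1654.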

How the data were processed

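Poly(A) RNA of pooled blastocysts was sequenced by the authors from a directional library kit. The submitters' processing notes name Trim Galore 0.4.1, HISAT2 2.0.5 and GRCm38. The deposited values are log2 RPKM per gene made by the authors in SeqMonk, where a gene without a read holds a value near that of 0.9 reads. Whether strand was used, and how multi-mapping reads were treated, is not given in the sources used here. No spike-in was added, so total mRNA per embryo cannot be read from these values.

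Tests used limma 3.58.1 (R 4.3.3) on the log2 values with a trended prior and no pseudocount, since the unit is no count. The 4 libraries of 10 h were fitted alone, and time was tested as an interaction with the 4 libraries of 7 h or 4 h. Whole reads were recovered from the step of each gene's values for 100% of the tested genes (tolerance 0.02 reads), and limma-voom was run on them as an alternative. Libraries held 19039078, 23287563 (control), 22019720 and 24457312 (p38-MAPKi) reads in the authors' scaling. Of the tested genes, 10 had no read in the 4 libraries, being so short (at most 39 bases) that the value of an empty gene passed 1 RPKM.

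Named genes were the 14 largest called rises and 14 largest called falls with separated groups and a mean of at least 5 RPKM, without predicted genes, then every called list member, the examples set for each list, and genes the study turned on. Members and lists were chosen with earlier results of these data known. Replicates of a group differed beyond sampling noise, so each counted as a library. Alternatives were other scalings, filters, pseudocounts, prior settings, a replicate block and the removal of each library.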

Additional observations from a re-analysis of the deposited data

Results flagged for a closer look

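AC139579.1 was the 1 gene of 11400 whose response to p38-MAPKi differed between E3.5 + 10 h and E3.5 + 7 h in a test of the difference (limma interaction, difference 2.34 on the log2 scale, SE 0.19, adjusted p = 0.0152). At 10 h it was at 12.8 and 14.5 RPKM in control and at a mean of 17.1 ± 0.112 RPKM in p38-MAPKi (SD, n = 2), a log2 fold change of 0.32. At 7 h it was at 11.49 and 10.7 RPKM in control and at 2.94 and 2.56 RPKM in p38-MAPKi, a log2 fold change of -2.02 that rests on 20 and 27 reads. The treated libraries were therefore the highest at 10 h and the lowest at 7 h. This call was lost without any 1 of the 4 libraries of 10 h and under median centring. Groups of 2 libraries are too small to look for a single library that stands apart.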

How the results depend on the processing

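The 88 calls (37 higher, 51 lower) lie close to the threshold, and none of the 88 genes changed direction in any alternative that tested it. The alternatives hold libraries that chose these genes, so a kept direction is no independent check. The count was 9 (4 higher, 5 lower) without the prior's trend, and only 3 of the 88 were among these. It was 0 without a filter on low values (2829 genes at an unadjusted p under 0.05, limma). At a limit of 10 RPKM it was 166 (61, 105), with 59 of the 88 tested and all 59 called. It was 0 with all 12 libraries in 1 fit (611 at an unadjusted p under 0.05, limma). With limma-voom it was 477 (301, 176), with 83 of the 88 among them. Removal of the length trend gave 60 higher. Without the control library numbered 2 it was 50, and without the p38-MAPKi library numbered 1 it was 42. Over the 4 removals it ran from 42 to 107, with 6 to 61 higher and 27 to 75 lower, and 23 to 53 of the 88 were among them.

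Replicate numbers pair only 2 libraries per group, and the deviations of same-numbered libraries correlated at 0.167, with no label that ties them. With the replicate block, 410 genes were called (179 higher, 231 lower), all 88 included, and 610 differed between 10 h and 7 h, with 0 between 10 h and 4 h.

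The difference between 10 h and 7 h gave 0 under median centring, 0 in each removal of a library of 10 h (1652 to 2121 at an unadjusted p under 0.05, limma) and 0 to 2918 over those of 7 h: 847 without the control library numbered 1, 0 without the one numbered 2, 25 without the p38-MAPKi library numbered 1 and 2918 without the one numbered 2. The difference between 10 h and 4 h gave 5 without the trend, 0 to 2 over the removals at 10 h and 557 without the p38-MAPKi library numbered 1 of 4 h. Scaling to the reads in genes and removal of libraries of 4 h and 7 h were chosen after seeing the data. The cause of these changes was not tested. Of 88 calls, 13 genes passed in 13 of 16 alternatives, Hyal1, Uchl1, Srxn1, Gabarapl1 and Dnajb9 among them.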
